A study of Mus musculus with 10 samples.

Results

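The 10 genes described here are S100a8, S100a9, Lcn2, Csf3, Csf3r, Retnlg, Trem1, Trem3, Clec4d and Clec4e, which are grouped as neutrophil and acute myeloid activation genes. The rule that sets them is a list of names with no threshold on a measured value, and the list was drawn up with earlier results of these data known. All 10 are among the 29268 genes of the count table. Uterine RNA was sequenced from 5 HSD17B1TG and 5 WT female mice at the age of 4 months, 1 library per mouse, to describe the uterus before adenomyotic glands are found in this model. The HSD17B1TG line is on the FVB/N background and carries a human HSD17B1 cDNA, whose enzyme converts estrone to estradiol, behind a chicken beta actin promoter with a CMV enhancer that is active in nearly all tissues, so the transgene is not restricted to one uterine cell type. Only one line is represented, its mice do not cycle, and WT uteri were taken at random phases of the cycle for histology, while the phase of the WT mice sequenced is not given in the sources used here. The human cDNA is not a feature of the mouse gene table, so its level was not analysed here. Single mice are named TG1 to TG5 (HSD17B1TG) and WT1 to WT5 (WT).

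Neutrophils are made in the bone marrow under granulocyte colony-stimulating factor, the product of Csf3, which acts through the receptor encoded by Csf3r. S100a8 and S100a9 encode the subunits of calprotectin, the most abundant protein of the neutrophil cytosol, and their transcripts are among the highest in blood neutrophils. Trem1, Trem3, Clec4d and Clec4e encode surface receptors of myeloid cells that signal through adaptors with an ITAM motif, and Retnlg encodes a resistin-like secreted protein of mouse granulocytes. Lcn2 encodes lipocalin 2, which binds bacterial siderophores. It is stored in neutrophil granules and is also secreted by epithelia, among them the uterine epithelium under estrogen.

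The sequences upstream of 3 members are shown because these genes are paired with one another in neutrophil biology, while their uterine levels differed widely. Each is the 250 bases before the RefSeq start site in GRCm38.p6, read 5′ to 3′ on the strand of the gene. For Lcn2 and S100a8 that site lies inside the gene coordinates given below. By those coordinates the Lcn2 window falls wholly, and the S100a8 window partly, within its gene. The Lcn2 window is chr2:32387740-32387989 on the minus strand, the S100a8 window is chr3:90668821-90669070 on the plus strand, and the S100a9 window is chr3:90695722-90695971 on the minus strand. Capitals mark the TATA box letters TATAAA in S100a8 and a match to the C/EBP letters TTGCNNAA in S100a9 and Lcn2, C/EBP factors being the main regulators of granule genes in granulocytes.
Lcn2: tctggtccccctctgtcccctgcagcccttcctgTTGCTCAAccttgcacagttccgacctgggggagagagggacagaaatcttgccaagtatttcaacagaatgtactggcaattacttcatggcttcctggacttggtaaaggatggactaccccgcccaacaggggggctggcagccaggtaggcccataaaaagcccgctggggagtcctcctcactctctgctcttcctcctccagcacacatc
S100a8: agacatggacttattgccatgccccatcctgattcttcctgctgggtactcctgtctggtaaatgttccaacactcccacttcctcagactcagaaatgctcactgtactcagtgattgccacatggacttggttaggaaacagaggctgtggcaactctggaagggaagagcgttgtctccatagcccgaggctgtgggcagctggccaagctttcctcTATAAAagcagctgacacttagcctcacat
S100a9: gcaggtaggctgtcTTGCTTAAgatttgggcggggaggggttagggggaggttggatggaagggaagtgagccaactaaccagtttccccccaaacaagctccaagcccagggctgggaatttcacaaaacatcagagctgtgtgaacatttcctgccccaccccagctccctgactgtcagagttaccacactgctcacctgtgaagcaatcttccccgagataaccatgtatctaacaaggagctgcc
The TATA match of S100a8 started 30 bases before the start site, and the C/EBP matches of Lcn2 and S100a9 started 216 and 236 bases before it. RefSeq windows were matched for 8 of the 10 members, all but Csf3 and Trem3. On both strands, TTGCNNAA was found in 4 of the 8 windows (S100a9, Lcn2, Retnlg and Clec4e) and in 9.56% of all 32851 windows of the same length. TATAAA was found in 2 of the 8 (S100a8 and Clec4e) and in 12.4% of all windows. The consensus for NF-kappaB was found in 1 of the 8 (Csf3r) and in 7.25% of all windows, and the AP-1 letters TGANTCA in 0 of the 8 and in 6.75% of all windows. The estrogen response element was found in 0 of the 8 and in 0.0639% of all windows, and the letters AGGTCA, the core of that element, in 1 of the 8 (Retnlg) and in 14.02% of all windows. No match overlapped another in the 8 windows. These matches describe letters in a window and were not tested as binding sites.

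Depth, as the sum of raw counts over genes, was 16544864 to 19451715 in HSD17B1TG 14817228 to 23271988 in WT. A level is given as FPKM (fragments scaled to gene length and to a size factor of each library, as deposited) with its SD over 5 mice. A raw count of 3 or fewer in a mouse was taken as the floor, where presence and absence cannot be told apart. That floor lay between 0.129 and 0.202 CPM (counts scaled to the library total) over the 10 mice and covers counting error only. A gene was called where edgeR's quasi-likelihood test gave an adjusted p under 0.05 over the 16993 genes that passed the filter on low counts, the fold change exceeded 2, and mean FPKM exceeded 1 in at least one genotype. By this rule 2.16% of the tested genes were called up in HSD17B1TG and 2.08% were called down, while 26.1% had an unadjusted p under 0.05 in either direction. The median log2 fold change over all tested genes was 0.002. The labels name no batch, and the libraries of a genotype were clearly distinct from one another, so all 10 mice were counted as separate.

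Of the 10 genes, 2 carried almost all of the signal. Lcn2 and Csf3, both secreted proteins, had at least 37 and up to 112052 counts in every mouse, whereas the 7 members S100a8, S100a9, Retnlg, Trem1, Trem3, Clec4d and Clec4e had at most 75 counts in any mouse. Retnlg, Trem1, Trem3 and Clec4e had at most 6 counts in any mouse, and Retnlg and Trem3 were at or under the floor in all 10 mice. The filter on low counts was passed by 4 members, Lcn2, Csf3, S100a9 and Csf3r. Of these, 1 was called up, Csf3 (2.16% of all tested genes), and 0 were called down (2.08% of all tested genes). The median log2 fold change of these 4 was 2.69, but S100a9 passed mainly through the HSD17B1TG mice, so this median is a description of the members that passed and of no others. The genotypes did not overlap in 1 of the 4 members tested, again Csf3, while 4.04% of the tested genes had every HSD17B1TG mouse above every WT mouse. In the members below the filter the genotypes overlapped. In bulk tissue, fewer cells of a type and less RNA per cell cannot be told apart.

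**Figure D1:**
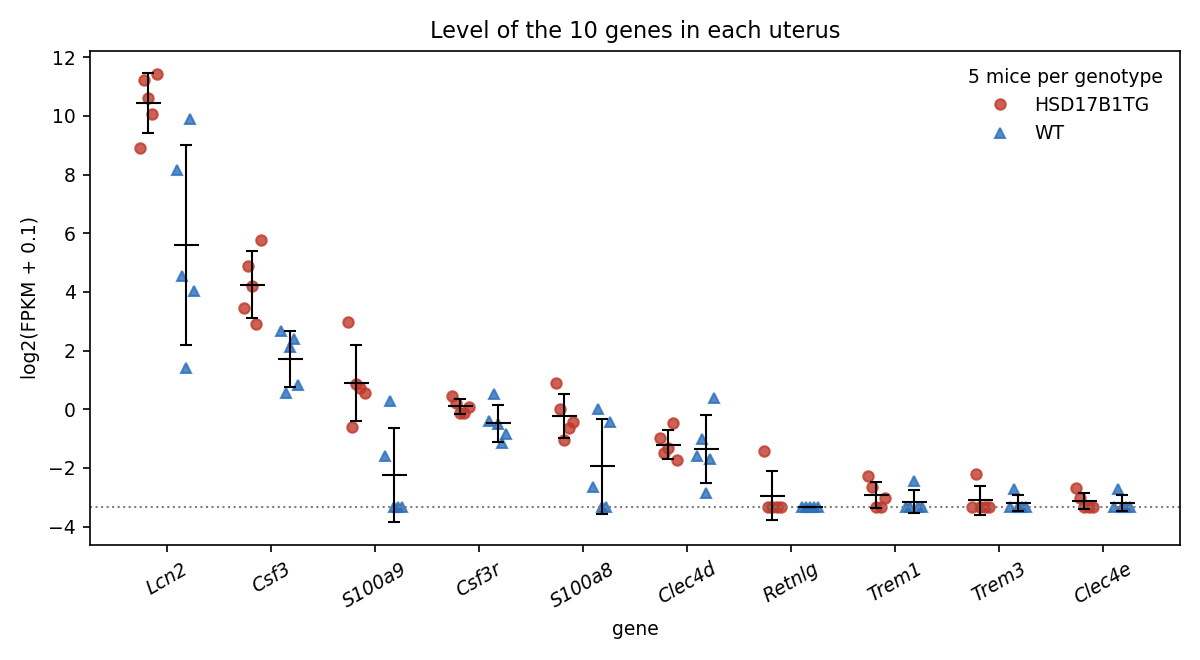
Level of the 10 genes as log2(FPKM + 0.1) on the vertical axis, ordered by mean FPKM, with 1 point per mouse (circles, HSD17B1TG; triangles, WT), the mean as a horizontal bar and the SD over 5 mice as whiskers; the dotted line is an FPKM of 0. Lcn2 spans the widest range in WT, Csf3 is the only gene whose genotypes do not overlap, and the 4 genes at the right lie near the dotted line in nearly all mice.

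Csf3 (ENSMUSG00000038067, chr11:98701263-98703629 in GRCm38), which encodes the cytokine that drives neutrophil production and release, rose in HSD17B1TG. Its FPKM was 10.8, 29.5, 18.5, 7.42 and 54.3 in TG1 to TG5. In WT1 to WT5 its FPKM was 6.22, 1.38, 4.21, 5.11 and 1.69. Every HSD17B1TG mouse lay above every WT mouse, although the lowest, TG4, was only slightly above the highest, WT1. The means were 24.1 ± 18.9 and 3.72 ± 2.12 (SD, n = 5 each), a ratio of 6.48, and the log2 fold change was 2.69 ± 0.61 (SE) with an adjusted p of 0.0345 in edgeR. The call rested on the full set of mice: with each mouse left out in turn Csf3 was called in 4 of 10 fits, the log2 fold change stayed between 2.15 and 2.93, and the adjusted p in edgeR lay between 0.0220 and 0.0818, above 0.05 when TG2, TG5, WT1, WT2, WT3 or WT5 was absent. With limma on voom weights the adjusted p was 0.0565.

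Lcn2 (ENSMUSG00000026822, chr2:32384633-32388252) was by far the highest of the 10 genes and, among the members with reads in every WT mouse, the one with the widest fold range in WT. Its FPKM was 476, 2385, 1566, 1067 and 2745 in TG1 to TG5. The WT mice, in order from WT1, had an FPKM of 287, 23.1, 2.53, 960 and 16.1. The HSD17B1TG mice lay within a 5.77-fold range, whereas the WT mice spread over 379-fold, from WT3 to WT4, and WT4 was above TG1. The means were 1648 ± 931 and 258 ± 410 (SD, n = 5 each), a ratio of 6.39, and 4 of the 5 HSD17B1TG mice were above every WT mouse. The log2 fold change was 2.69 ± 1.28 (SE) with an adjusted p of 0.210 in edgeR, so Lcn2 did not pass the test. Fits on log values gave Lcn2 a larger log2 fold change, 4.89 with limma on voom weights (adjusted p = 0.0927) and 4.73 with limma on log2(FPKM + 1) (adjusted p = 0.0584), and did not call it either. Without WT4 the log2 fold change was 4.33 and the adjusted p in edgeR was 0.0499, and over the 10 fits that each left out 1 mouse the adjusted p reached 0.338.

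Lcn2 made up 97.9% to 99.4% of the summed counts of the 10 genes in HSD17B1TG and 44.0% (WT3) to 99.7% (WT4) in WT. It alone took 0.120% to 0.615% of all counts in the HSD17B1TG libraries. By FPKM it ranked between 11 and 75 among all genes of the table in HSD17B1TG, while in WT its rank ran from 27 in WT4 to 11104 in WT3. In 9 of the 10 mice it was at least 86.9% of the summed counts, so a sum over the 10 genes mostly reports Lcn2.

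S100a8 and S100a9, which lie 22597 bases apart on chromosome 3 and encode the calprotectin subunits, were low in both genotypes. S100a9 (ENSMUSG00000056071, chr3:90692632-90695721) had an FPKM of 7.71, 0.55, 1.73, 1.54 and 1.35 in TG1 to TG5, from raw counts of 75, 5, 17, 13 and 11. The WT mice had counts of 3, 11, 0, 0 and 0 in the same order, and 3 counts would correspond to an FPKM of 0.234 to 0.369 over the 10 libraries. All 5 HSD17B1TG mice and 1 WT mouse were over the floor, TG1 stood far above the rest, and WT2 lay above TG2, so the genotypes overlapped. The means were 2.58 ± 2.90 and 0.269 ± 0.481 (SD, n = 5 each), and the log2 fold change was 3.20 ± 1.09 (SE) with an adjusted p of 0.0967 in edgeR. DESeq2 gave a log2 fold change of 3.27 with an adjusted p of 0.0318, which passes the threshold that edgeR missed. Leaving out TG1 lowered the edgeR log2 fold change to 2.21 and leaving out WT2 raised it to 4.99, and none of the 10 fits that each left out 1 mouse called it.

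S100a8 (ENSMUSG00000056054, chr3:90668978-90670035) fell below the filter on low counts. Its counts were 23, 11, 5, 6 and 7 in TG1 to TG5. The WT counts were 1, 12, 0, 0 and 9 from WT1 to WT5. The FPKM means were 0.851 ± 0.553 and 0.320 ± 0.424 (SD, n = 5 each), with WT2 and WT5 inside the range of HSD17B1TG. A fit of all genes without the filter gave a log2 fold change of 1.35 ± 0.98 (SE) with an adjusted p of 0.442 in edgeR. Both calprotectin genes were highest in TG1 among HSD17B1TG and in WT2 among WT.

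**Figure D2:**
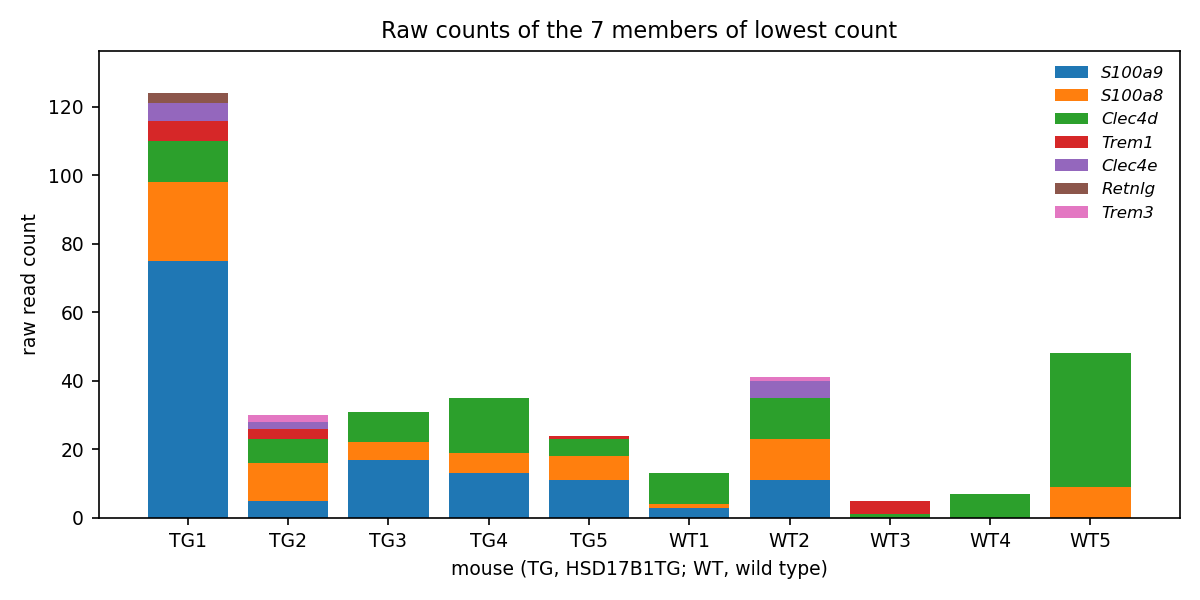
Raw read counts, on the vertical axis, of the 7 members of lowest count in each mouse, stacked by gene. TG1 holds 75 of the S100a9 counts, Clec4d makes up most of the WT5 bar with 39 counts, and Retnlg and Trem3 reach at most 3 and 2 counts.

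Csf3r (ENSMUSG00000028859, chr4:126024550-126044440), the receptor for the Csf3 product on granulocytes and their precursors, was low but measurable in every mouse. Its FPKM was 1.28, 1.07, 0.82, 0.81 and 0.96 in TG1 to TG5. In WT1 to WT5 its FPKM was 0.66, 1.33, 0.60, 0.35 and 0.46. The highest mouse of all was WT2, which was also the mouse with the lowest Csf3. The means were 0.988 ± 0.194 and 0.680 ± 0.382 (SD, n = 5 each), and the log2 fold change of 0.53 ± 0.37 (SE) did not pass the test (edgeR adjusted p = 0.392).

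Clec4d, which encodes a C-type lectin receptor for mycobacterial and fungal ligands, was the only one of the 4 surface receptors with a usable count in most mice. Its counts (ENSMUSG00000030144, chr6:123262111-123275265) were 12, 7, 9, 16 and 5 in TG1 to TG5. The counts of WT1 to WT5 were 9, 12, 1, 7 and 39. Here the highest mouse was WT5 and the lowest WT3, both WT, and without the filter the log2 fold change was -0.26 ± 0.71 (SE) with an adjusted p of 0.874 in edgeR. Clec4e, its neighbour 6524 bases away and the receptor known as Mincle, had 5 and 2 counts in TG1 and TG2, 5 in WT2 and 0 in the other mice.

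Trem1, an amplifier of Toll-like receptor signalling on neutrophils and monocytes, had 6, 3, 0, 0 and 1 counts in TG1 to TG5, and WT3 alone had counts among WT, 4. Trem3, which lies 853 bases beyond Trem1 on chromosome 17, had 2 counts in TG2 and 1 in WT2. Retnlg had 3 counts in TG1 and 0 in the other 9 mice. A difference between genotypes in these 3 genes or in Clec4e was not detectable at this depth, and no fold is given. The coordinates of the 10 genes were the same in GENCODE M21, where 9 of them overlap no other gene and Trem1 overlaps a processed pseudogene on the other strand.

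Whether genes that work as pairs differed between genotypes by the same factor was asked with the log2 ratio of the 2 levels, each as FPKM + 0.1, in each mouse. The mean log2 ratio of Csf3 to Csf3r, ligand to receptor, was 4.14 ± 1.14 in HSD17B1TG and 2.19 ± 1.38 in WT (SD, n = 5 each). The difference of 1.96 had p = 0.0476 by two-sided exact permutation of the mice, and 0.286 after adjustment over the 6 pairs examined. With a pseudocount of 1 in place of 0.1 the difference was still 1.96 and the adjusted p of the exact test was 0.0476. The ratio of S100a8 to S100a9 differed by -1.44 on the log2 scale (exact p = 0.103, adjusted 0.310), with S100a9 at 0 counts in 3 of the 5 WT mice, and by -0.78 with the pseudocount of 1 and -0.80 without WT5. The ratio of Lcn2 to S100a9 differed by 1.69 (exact p = 0.421, adjusted 0.819), and its range ran from 5.93 to 11.8 in HSD17B1TG and from 4.26 to 13.2 in WT. That difference was 3.44 with the pseudocount of 1 (adjusted exact p = 0.143), 3.03 without WT4, 2.59 without TG1, 1.11 without TG2, 0.90 without WT3 and 0.79 without WT2, so its size was not settled by these mice. The remaining pairs, Clec4d with Clec4e, Trem1 with Trem3 and Retnlg with Csf3r, each hold a gene that is at or under the floor in at least 8 of the 10 mice, so their ratios are set by the pseudocount and say nothing of the genotypes. With the pseudocount of 0.1 none of the 6 pairs passed after adjustment. The smallest p that 5 mice against 5 allow is 0.00794.

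The members did not rank the mice alike. TG1 was the highest HSD17B1TG mouse for S100a8, S100a9, Csf3r, Retnlg, Trem1 and Clec4e but the lowest for Lcn2. WT2 was the highest WT mouse for S100a8, S100a9, Csf3r, Trem3 and Clec4e and the lowest for Csf3. Within genotypes, as deviations of log2(FPKM + 0.1) from the genotype mean over 10 mice, S100a9 went with Csf3r at r = 0.78 and rho = 0.52, but the p of 0.0175 for r in an exact permutation test became 0.158 after adjustment over 9 relations, and without TG1 and WT2 r was 0.23. For S100a8, r with S100a9 was 0.54 and without the same 2 mice -0.24. The r of S100a9 with Lcn2 was -0.14 and with Csf3 -0.44, and none of the 9 relations passed after adjustment. What relation there was between S100a9 and Csf3r rested on TG1 and WT2.

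Lcn2 instead followed Ltf, which encodes lactoferrin, an iron-binding protein of neutrophil granules that the mouse uterine epithelium secretes under estrogen. The Ltf FPKM (ENSMUSG00000032496, chr9:111019271-111042767) was 880, 4583, 3396, 1686 and 4541 in TG1 to TG5. Among WT mice, from WT1 on, Ltf was 287, 167, 8.43, 401 and 38.4. The 5 WT mice had the same order in Ltf as in Lcn2, and among HSD17B1TG mice only TG2 and TG5 changed places. Within genotypes r was 0.92 and rho 0.85 over 10 mice (permutation p adjusted over 4 relations 0.00667 and 0.0374), and r was 0.82 without WT3 and WT4, the mice whose Lcn2 deviations from their genotype mean lay farthest from the median deviation. The mean of 9 epithelial marker genes also went with Lcn2 (r = 0.75, rho = 0.90, adjusted permutation p 0.00819 and 0.00806, r = 0.78 without WT3 and WT4). C3, the complement component that estrogen raises in the uterine epithelium, had r = 0.83 and rho = 0.61 with adjusted permutation p of 0.0555 and 0.184, and r without the same mice was 0.43. Csf3 went with Lcn2 at r = 0.47 and rho = 0.66, with adjusted permutation p of 0.164 and 0.0719, and r was 0.82 without WT3 and WT4. These 4 relations were chosen after the levels had been seen, and the WT mice fall into 2 high and 3 low in Lcn2.

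**Figure D3:**
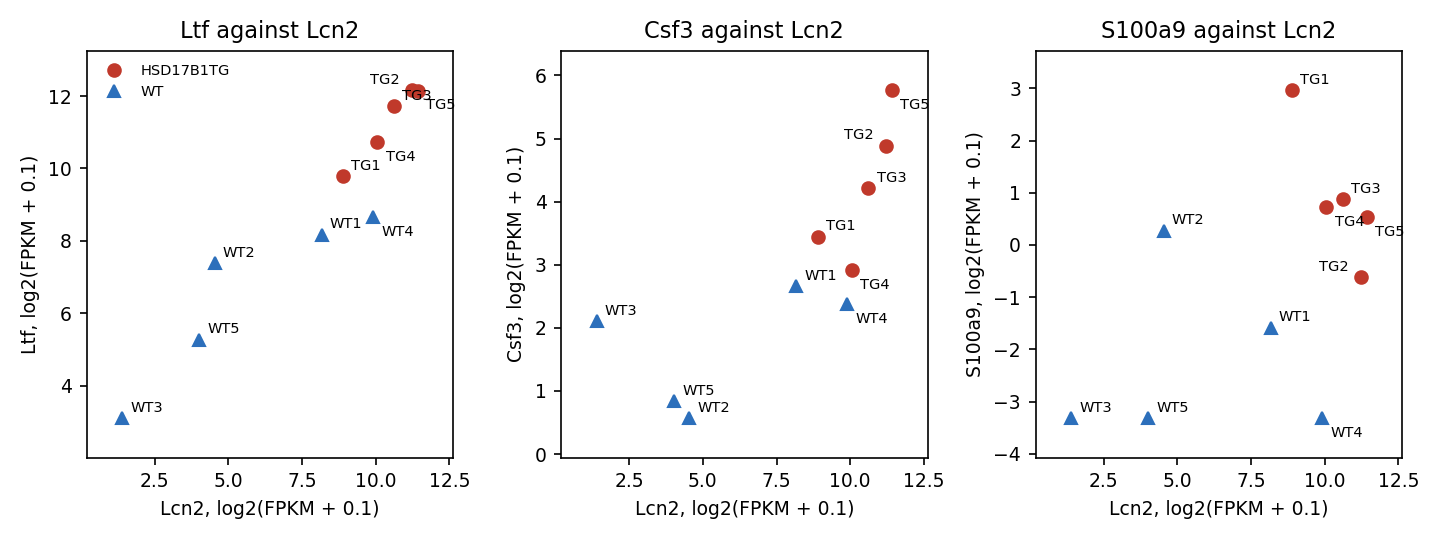
Level of Ltf, Csf3 and S100a9 against Lcn2, all as log2(FPKM + 0.1), with 1 labelled point per mouse (circles, HSD17B1TG; triangles, WT). Ltf rises with Lcn2 within each genotype, whereas in S100a9 the highest mouse, TG1, is the HSD17B1TG mouse with the lowest Lcn2, and WT4, with the highest WT Lcn2, has 0 S100a9.

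Among 12666 protein-coding genes, those whose deviations from the genotype mean were most like those of Lcn2 were Slc23a4 (r = 0.988), Elf3, an epithelial ETS factor (r = 0.987), and Bhlhe40, a helix-loop-helix repressor (r = 0.985). The genes most like S100a9 were Slc25a42 (r = 0.908), Cmtm7 (0.889), Hmg20b (0.885), Hunk (0.874) and 0610010F05Rik (0.854). These values are the extremes of many genes over 10 mice and are given as a description.

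The label of the 10 genes was set against the defining markers of neutrophils. Of 14 markers of mature neutrophils, 12 were in the table, 5 passed the filter, 0 were called up and 1 was called down. Of the 5 tested, 4 had a log2 fold change above 0, 3 had an unadjusted p under 0.05 (26.1% of all tested genes did), and the median log2 fold change was 1.72. The gene called down was Il1r2, a decoy receptor for IL-1, with a log2 fold change of -2.49 ± 0.63 (SE, edgeR adjusted p = 0.0445). Cxcr2, the chemokine receptor that brings neutrophils into tissue, had at most 5 counts in any mouse, and Stfa2l1, a stefin abundant in neutrophils, was at or under the floor in all mice. The summed FPKM of the list lay between 22.1 and 77.6 in HSD17B1TG and between 3.78 and 24.7 in WT, and most of it in HSD17B1TG came from Padi4, whose enzyme citrullinates histones. Padi4 had a mean FPKM of 41.0 ± 19.98 in HSD17B1TG and 7.78 ± 7.56 in WT (SD, n = 5 each) and was not called (log2 fold change 2.40 ± 0.86 SE, edgeR adjusted p = 0.108). Ly6g, the surface antigen by which mouse neutrophils are sorted, had FPKM of 1.25, 4.70, 9.42, 4.87 and 7.71 in TG1 to TG5. Ly6g in WT1 to WT5 was 1.99, 0.45, 0, 3.91 and 0. Its highest WT mice were WT4 and WT1, the same as for Lcn2 and Padi4 and not WT2, the highest for calprotectin, and its log2 fold change of 2.12 ± 1.07 (SE) did not pass (edgeR adjusted p = 0.236). Mmp9, a gelatinase of neutrophil granules and other cells, had a mean of 2.20 FPKM in HSD17B1TG and 0.667 in WT (log2 fold change 1.72 ± 0.64 SE, edgeR adjusted p = 0.122), and Cd177, a neutrophil surface antigen that fell below the filter on low counts, had 8 to 157 counts in HSD17B1TG and 0 to 4 in WT. Mmp9 and Cd177 were named after their values had been seen.

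Of 10 granule genes of neutrophil precursors, 7 were in the table, 3 passed the filter and 1 was called up, Ltf (log2 fold change 4.07 ± 0.94 SE, edgeR adjusted p = 0.0374). Camp, the cathelicidin, was at or under the floor in all mice, and Ngp, another granule protein, had at most 4 counts. Mpo, myeloperoxidase, was at 0.848 ± 0.441 FPKM in HSD17B1TG and 0.436 ± 0.285 in WT (SD, n = 5 each) and was not called (edgeR adjusted p = 0.387). Ltf alone thus made nearly all of the summed FPKM of this list, 883 to 4584 in HSD17B1TG and 10.3 to 402 in WT. Levels of the neutrophil transcripts were unequal. S100a8, S100a9, Cxcr2, Camp and Ngp were at or near 0 in most WT mice and low in HSD17B1TG. Ly6g, Cd177 and Padi4, like S100a8 and S100a9, were above the floor in every HSD17B1TG mouse. For Cd177, every HSD17B1TG mouse lay above every WT mouse. The means of S100a8 and S100a9, like those of Ly6g, Padi4, Mmp9, Cd177 and Mpo, were higher in HSD17B1TG without being called in edgeR, S100a8 and Cd177 being below the filter, and Il1r2 was lower. Because the markers were mixed in level, the 10 genes are called here by their names, and the number of neutrophils was not estimated.

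Among 8 neutrophil chemoattractants, 4 were tested and 1 was called up, Cxcl5, an epithelial ligand of Cxcr2. Cxcl5 FPKM was 0.605 to 14.9 in HSD17B1TG and 0.254 to 0.650 in WT, with the HSD17B1TG mean of 4.35 set largely by TG5 (log2 fold change 3.19 ± 0.84 SE, edgeR adjusted p = 0.0494). Cxcl15, a lung and uterine chemokine, had means of 0.211 ± 0.473 FPKM in HSD17B1TG and 12.6 ± 13.3 in WT (SD, n = 5 each). Its range was 0 to 1.06 FPKM in HSD17B1TG, where a single mouse set the mean, and 0.159 to 32.3 in WT. Cxcl15 missed the threshold (log2 fold change -5.94 ± 1.66 SE, edgeR adjusted p = 0.0566). Upstream of the chemoattractants, the list of IL-1, IL-17 and IL-22 inputs and acute phase genes had 11 genes tested and 3 called up. Il1a, an alarmin cytokine, had means of 7.85 ± 4.17 and 0.254 ± 0.134 FPKM (SD, n = 5 each) and a log2 fold change of 4.93 ± 0.51 (SE) with an edgeR adjusted p of 0.00956. Nfkbiz, the nuclear cofactor that IL-1 and IL-17 use to induce Lcn2, rose by a log2 fold change of 1.38 ± 0.31 (SE, edgeR adjusted p = 0.0348). The other was Zc3h12a, an RNase that degrades cytokine transcripts (log2 fold change 1.98 ± 0.49 SE, edgeR adjusted p = 0.0429). The median log2 fold change was 0.64 over the chemoattractants tested and 1.15 over the IL-1, IL-17 and IL-22 list. In edgeR, 3 of the 4 chemoattractants and 7 of the 11 genes of the other list had an unadjusted p under 0.05 (26.1% of all tested genes).

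None of the 12 tested genes of granulopoiesis and granulocyte colony-stimulating factor signalling was called, and their median log2 fold change was 0.14. This list also holds receptors of other cytokines, such as Csf2ra and Il6ra, and is not a readout of the Csf3 product alone. The genes of smallest p were Pim1, a kinase induced by STAT factors, at 32.3 ± 11.02 FPKM in HSD17B1TG and 14.5 ± 8.41 in WT (edgeR adjusted p = 0.104), and Cebpb, the factor of emergency granulopoiesis, at 71.9 ± 12.3 and 33.8 ± 22.9 FPKM (SD, n = 5 each, edgeR adjusted p = 0.126). An unadjusted p under 0.05 was found for 4 of these 12 genes, near the 26.1% of all tested genes.

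For the receptors, 12 genes of ITAM adaptors and kinases were tested and 2 were called up. Of these 12, 5 had an unadjusted p under 0.05 in edgeR (26.1% of all tested genes). Vav1, an exchange factor of haematopoietic cells, rose from 2.04 ± 0.512 FPKM in WT to 7.39 ± 2.63 in HSD17B1TG (SD, n = 5 each, log2 fold change 1.85 ± 0.30 SE, edgeR adjusted p = 0.0177). Lyn, a Src-family kinase, rose from 9.79 ± 2.30 to 23.8 ± 7.78 FPKM (SD, n = 5 each, edgeR adjusted p = 0.0240). The adaptors themselves were not called. Tyrobp, which carries the signal of Trem1 and Trem3, had a log2 fold change of -0.55 ± 0.29 (SE, edgeR adjusted p = 0.249), and Fcer1g, which carries that of Clec4d and Clec4e, had one of -0.27 ± 0.27 (SE, edgeR adjusted p = 0.571). Tyrobp and Fcer1g were named after their values had been seen. None of the 10 tested genes among other Trem and C-type lectin receptors was called, and 0 of them had an unadjusted p under 0.05 in edgeR, against 26.1% of all tested genes. Trem2, of macrophages, had means of 3.04 ± 2.07 and 1.87 ± 0.810 FPKM and Clec5a 0.152 ± 0.114 and 0.260 ± 0.0732 FPKM in HSD17B1TG and WT (SD, n = 5 each).

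Of the receptors for calprotectin and the subunits of the phagocyte NADPH oxidase, 12 were tested and 1 was called up, Cyba, the membrane subunit that several NADPH oxidases share, at 254 ± 104 FPKM against 87.4 ± 20.7 in WT (SD, n = 5 each, edgeR adjusted p = 0.0229). Tlr4, a receptor for calprotectin, was at 8.11 ± 1.73 and 4.20 ± 1.46 FPKM and missed the threshold (edgeR adjusted p = 0.0514). In edgeR, 6 of the 12 receptor and oxidase genes had an unadjusted p under 0.05 (26.1% of all tested genes). None of the 9 tested genes among the other S100 genes was called, and their median log2 fold change was -0.33. Of these 9, 3 had an unadjusted p under 0.05 in edgeR. S100a6 and S100a10, calcium-binding proteins of many cell types, had log2 fold changes of -0.90 ± 0.25 and -0.60 ± 0.18 (SE, edgeR adjusted p = 0.0580 and 0.0641). Retnla, of the resistin family, was at 9.47 ± 9.80 and 4.90 ± 1.52 FPKM (SD, n = 5 each, edgeR adjusted p = 0.332) and was the only gene of that family that was tested, Retnlg being below the filter.

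Markers of other cells moved with the genotype to different degrees. Of 7 markers of all leucocytes, 1 was called up, Laptm5 (39.6 ± 10.7 against 16.2 ± 5.50 FPKM, SD, n = 5 each, edgeR adjusted p = 0.0312), and the other 6 had a log2 fold change below 0. The median log2 fold change was -0.59, and 4 of the 7 had an unadjusted p under 0.05 (26.1% of all tested genes). The summed FPKM was 50.3 to 76.8 in HSD17B1TG and 41.4 to 79.7 in WT, with Laptm5 the largest part of the HSD17B1TG sums. Cd52, a surface glycoprotein of lymphocytes, was at 6.0 ± 1.82 and 15.5 ± 8.12 FPKM (edgeR adjusted p = 0.0639). Of 10 macrophage markers, 1 was called up (Cd68) and 1 called down (Mertk), while the complement genes C1qa and C1qb had log2 fold changes of 0.21 and -0.02. Of the monocyte, eosinophil, mast cell and red cell markers, 5, 1, 4 and 4 were tested and 0 were called in edgeR, 1 of them with an unadjusted p under 0.05 (26.1% of all tested genes) and that in the monocyte list. The summed FPKM of the red cell markers was 22.7 to 106 in HSD17B1TG and 32.3 to 157 in WT, with overlapping ranges. The 9 epithelial markers all had a log2 fold change above 0, 8 of them with an unadjusted p under 0.05 (26.1% of all tested genes) and 0 called in edgeR, with a median log2 fold change of 1.24 and a summed FPKM of 705 to 3320 in HSD17B1TG and 488 to 1652 in WT. Krt19, a keratin of gland and lining cells, was at 509 ± 212 and 187 ± 169 FPKM (SD, n = 5 each, edgeR adjusted p = 0.156). Of 6 stromal markers 1 was called down (Pdgfra), 1 had a log2 fold change above 0, and the median was -0.91. In edgeR 3 of these 6 had an unadjusted p under 0.05 (26.1% of all tested genes). Of 6 smooth muscle markers 0 were called in edgeR, none with an unadjusted p under 0.05. All 6 had a log2 fold change above 0, with a median of 0.56.

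The hormone-induced lists had medians farther from 0 than the myeloid ones. Of 9 genes that estrogen induces in the uterus, 3 were called up (Ltf, Sprr2b and Sprr2d), and the median log2 fold change was 2.80. An unadjusted p under 0.05 in edgeR was found for 7 of these 9 (26.1% of all tested genes). Sprr2d and Sprr2b, small proline-rich proteins of the epithelium, had log2 fold changes of 5.78 ± 1.19 and 5.23 ± 1.08 (SE, edgeR adjusted p = 0.0279 for both). The summed FPKM of that list was 3464 to 19873 in HSD17B1TG and 192 (WT3) to 4512 (WT4) in WT, with the WT extremes in the same mice as those of Lcn2. Of the progesterone-induced genes, 6 were tested and 5 were called down, among them Il13ra2 (log2 fold change -7.09 ± 0.94 SE, edgeR adjusted p = 0.0149) and Fkbp5 (-1.65 ± 0.28, edgeR adjusted p = 0.0199). The estrogen list holds Ltf, which the granule list holds too. The part of epithelial amount, estrogen action, cycle phase or myeloid cells in the levels of Lcn2 and Csf3 was not tested.

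**Figure D4:**
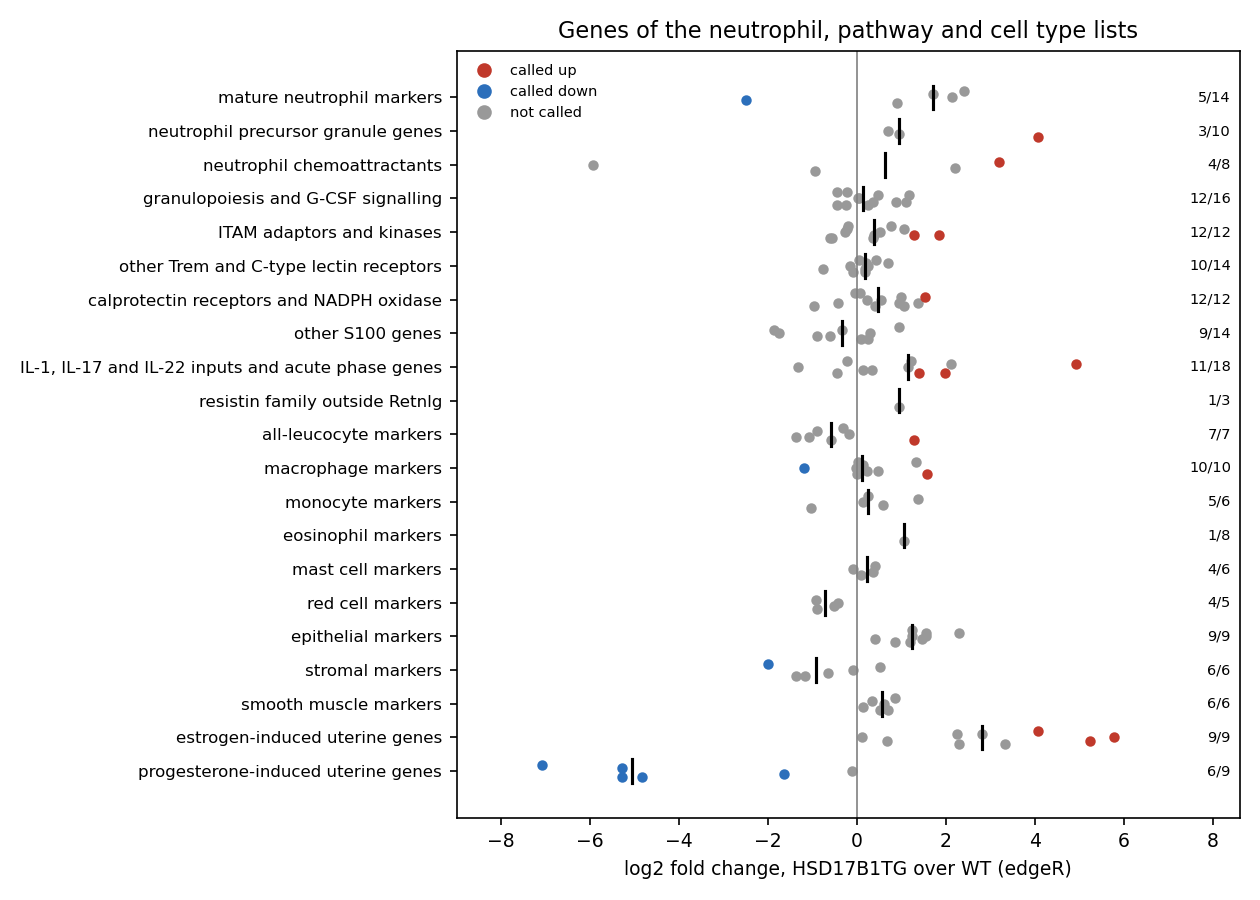
Log2 fold change of HSD17B1TG over WT in edgeR for each tested gene (1 point each) of the 21 lists on the vertical axis, with called genes in red (up) and blue (down), the median of the tested genes as a black bar and the number tested of the number listed at the right. Called genes are few in the neutrophil and receptor lists, and the hormone-induced lists at the bottom have the medians farthest from 0, 2.80 and -5.05.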

How the data were processed

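Libraries of uterine RNA from 5 HSD17B1TG and 5 WT mice were read from both ends at 150 bp. Raw counts per gene of Ensembl 94 (GRCm38) were deposited by the authors, after alignment with HISAT2 2.0.5 (version from the submitters' processing notes). The same table holds the deposited signal, which is the count divided by a DESeq2 size factor, and the deposited FPKM, which use the same size factor. How reads were counted, and with which strand setting, is not given in the sources used here. The deposited log2 fold changes and p-values of the authors' comparison, and the tables of enriched terms, were not used.

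Groups were taken from the genotype in the labels. The labels tie no mice to a litter or batch. The test on raw counts was that of edgeR 4.0.16 under R 4.3.3 (filterByExpr, TMM, quasi-likelihood test, Benjamini-Hochberg adjustment over 16993 genes), with genotype as the only term. FPKM were used for levels, ratios and correlations as log2(FPKM + 0.1). Correlations and ratios were tested with two-sided exact permutation of the mice, 252 assignments between and 14400 within genotypes, with scipy 1.17.1 and numpy 2.4.6. Alternatives were DESeq2 1.42.0, other scalings and filters, limma 3.58.1 on voom weights and on log2(FPKM + 1), the adjusted p alone, and each mouse left out in turn. Leaving out TG1 and WT2 together was added after the data had been seen.

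The 10 genes and the 21 gene lists were chosen with earlier results of these data known. The genes set for naming were the 10 members, the genes of smallest edgeR p in each pathway list, the 2 of highest mean FPKM in each cell type list, the genes most like Lcn2 and S100a9, and Ltf and C3. For several cell type lists these genes are not printed in the text. Genes called in a list, and those a sentence singles out for low counts or as adaptors, were named after their values were seen. On counts simulated from the observed means and library sizes, edgeR called 176 of 16631 genes tested, of which 173 were among the 200 changed genes (99 of 100 changed 16-fold and 74 of 100 changed 4-fold) and 3 were not. With no gene changed it called 0. In this check a call needed only an adjusted p under 0.05, without the limits on fold change and FPKM. The changed genes were drawn only from genes above a minimum mean level, which among the members only Lcn2 and Csf3 reached. The check therefore does not cover the other members. Depth lay between 14817228 and 23271988 counts per mouse.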

Additional observations from a re-analysis of the deposited data

Results flagged for a closer look

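For each of the 10 genes, the 5 mice of each genotype were checked for a mouse far from the others. The level used flags about 1 in 20 groups by chance where values are normally distributed, which FPKM near 0 are not. A group with reads in only 1 mouse is always flagged, so the number flagged is not a comparison with chance. Of 20 groups, 7 held such a mouse. S100a9 stood apart in TG1, at 7.71 FPKM from 75 counts, and in WT2, at 1.11 FPKM from 11 counts. The other 5 rest on 5 counts or fewer in a single mouse, with the other mice of the group at 0. These are Retnlg in TG1 at 0.271 FPKM (3 counts), Trem1 in WT3 at 0.0828 FPKM (4 counts), Trem3 in TG2 at 0.116 FPKM (2 counts), Trem3 in WT2 at 0.0530 FPKM (1 count) and Clec4e in WT2 at 0.0530 FPKM (5 counts). Without TG1 and WT2 together, S100a9 no longer passed the filter on low counts, Csf3 was still called (log2 fold change 2.65, edgeR adjusted p = 0.0493), and Lcn2 was still not called (2.60, edgeR adjusted p = 0.278).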

How the results depend on the processing

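With each mouse left out in turn, the number of genes called up lay between 38 and 888 (main 367) and the number called down between 27 and 666 (main 354). The lowest counts came without TG5 or WT2 and the highest without WT4. Members called up lay between 0 and 2. DESeq2 called 923 genes up and 674 down and 2 members (Csf3 and S100a9). Its median over the members was 1.33, since it fitted all 10. For Retnlg, Trem1, Trem3 and Clec4e it gave no adjusted p, and their fold changes in that median rest on few counts. The adjusted p alone gave 568 genes up. With voom weights 189 genes were called down and 0 members up. On log2(FPKM + 1) limma called 228 genes down and the median of the members was 1.75. Without the filter the median was 1.24, over all 10 members. Scaling to library totals alone moved the median of all genes to -0.17 on the log2 scale and changed the calls to 286 up and 494 down, and Csf3 was called there with a log2 fold change of 2.49. The direction of Csf3, Lcn2, S100a9 and Csf3r was the same wherever they were tested, and DESeq2 size factors in edgeR changed no call among them. No paired analysis was possible because the labels give no replicate numbers: mice were numbered in accession order, and the unexplained numbers that end the titles have only 1 value in common between the genotypes. Depth limits Retnlg, Trem1, Trem3 and Clec4e, for which no difference could be measured, and all p-values measure the spread between 5 mice of one line against 5 WT mice whose cycle phase is not given.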

Other observations

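Other genes used as myeloid markers did not rank the HSD17B1TG mice alike. In TG1, the mouse with the most S100a8 and S100a9, Mmp9 (4.31 FPKM) and Mpo (1.33 FPKM) were the highest of the 5 mice, as was Cxcr2 at 5 counts, whereas Itgam, Cd177, Ly6g and Padi4 were the lowest. The genes of this paragraph were chosen after their values had been seen. Itgam, which encodes the integrin CD11b, rose with a log2 fold change of 3.86 ± 0.80 (SE, edgeR adjusted p = 0.0279), and its FPKM was 15.2, 40.0, 22.6, 22.7 and 52.8 in TG1 to TG5. In WT1 to WT5 Itgam FPKM was 1.24, 0.98, 0.46, 7.32 and 0.58, with WT4 the highest. Ptprc, which encodes CD45 of all leucocytes, had FPKM of 1.08, 1.15, 1.05, 0.71 and 0.71 in TG1 to TG5. Ptprc in WT1 to WT5 was 2.03, 1.5, 2.63, 0.90 and 2.81, so WT4, which was highest among WT in Lcn2, Padi4, Ly6g and Itgam, was the lowest WT mouse in Ptprc. The cells that carry these transcripts were not identified here.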
